A study of Mus musculus with 6 samples.

Results

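The genes described here are 10 that encode non-muscle and smooth muscle myosin II chains and the enzymes acting on their regulatory light chain: Myh11, Myh9, Myh10, Myl9, Myl6, Myl12a, Myl12b, Mylk, Ppp1r12a and Ppp1r12b. They were taken by exact symbol from a deposited table of 22482 protein-coding genes, and all 10 were found. RNA was sequenced from cultured C57BL/6 mouse aortic vascular smooth muscle cells kept in 10% serum, 48 h after adenovirus. One group of 3 libraries is labelled Myocd knockdown, with titles that read ADV. The other group of 3 is labelled negative control virus, with titles that read Ctrl, and the design text calls those cells wildtype, so whether they received virus is not certain. The labels do not state whether libraries within a group are separate cultures or animals. P-values therefore reflect library-to-library spread, possibly technical.

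Myosin II is the motor that pulls on actin filaments. It is a hexamer of a pair of heavy chains, a pair of essential light chains and a pair of regulatory light chains. In smooth muscle, calcium signalling activates myosin light chain kinase, encoded by Mylk, which phosphorylates the regulatory light chain and starts contraction. A phosphatase whose targeting subunits are encoded by Ppp1r12a and Ppp1r12b removes that phosphate, and the kinases encoded by Rock1 and Rock2 restrain the phosphatase. Contractile smooth muscle cells carry the heavy chain Myh11 and the regulatory chain Myl9, and they share the non-muscle chains Myh9, Myh10, Myl12a and Myl12b with most other cells. Myocardin, the product of Myocd, turns on smooth muscle genes by binding serum response factor (SRF), which recognises the CArG box in DNA.

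The Myocd gene itself went against the labels. It had 131.7, 130.1 and 145.5 FPKM (the authors' fragment level normalized for transcript length and depth) in the libraries labelled knockdown, against 0.0355, 0 and 0.125 FPKM in those labelled control. The groups are therefore called by their labels, and "higher" means higher in the libraries labelled knockdown, where Myocd was higher. Depth over protein-coding genes was 7528153 to 9117649 fragments in the libraries labelled knockdown and 9303515 to 9793782 in those labelled control. Smooth muscle markers summed to 511.9 to 538.9 FPKM across the libraries labelled knockdown and 221.7 to 245.8 in those labelled control, and most of that gap was Acta2, with means of 340.2 FPKM under the knockdown label and 67.2 under the control label. Without Acta2 the sums were 179.6 to 196.8 FPKM under the knockdown label and 158.6 to 174.3 under the control label. Of 5 tested markers 3 rose in limma (Acta2, Lmod1 and Des), and 2 of the 7, Cnn1 and Myh11, stayed under 0.5 FPKM in every library. All 6 listed endothelial markers (Pecam1, Cdh5, Kdr, Tek, Tie1 and Erg) stayed under 0.5 FPKM. Vwf, also an endothelial gene, was not on that list. It averaged 1.24 FPKM under the knockdown label and 0.185 under the control label (limma adjusted p = 0.0346). The summed levels overlapped between the groups for the endothelial, macrophage, fibroblast, mesothelial, epithelial and striated muscle lists. The 6 fibroblast markers summed to 1109 to 1352 FPKM under the knockdown label and 1043 to 1223 under the control label. Nearly all of that was Ly6a, with means of 1194 and 1083 FPKM under the same labels. Without Ly6a the sums were 59.5 to 70.7 FPKM under the knockdown label and 59.7 to 70.2 under the control label. The 5 mesothelial markers, mostly Krt19, summed to 302.2 to 324.7 and 320.0 to 351.5 FPKM under the same labels. The 5 macrophage markers summed to 20.6 to 24.5 FPKM under the knockdown label and 22.4 to 26.4 under the control label. Most of that was Cd14, with means of 17.2 and 20.8 FPKM under the same labels. Ptprc and Csf1r, also on that list, stayed under 0.5 FPKM in every library. The 4 neural crest and glial markers did not overlap, at 0.458 to 1.23 FPKM under the knockdown label and 7.34e-05 to 0.200 under the control label, with Sox10 at 0 in every library. The part of these other cells in the results was not tested, and in bulk RNA fewer cells of a type and less RNA per cell cannot be told apart.

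The stretches of DNA before 3 light chain genes are shown because they hold the CArG boxes found among these genes. RefSeq (GRCm38.p6) promoters were available for 9 of the 10 genes, in 11 windows of 250 bases before a transcription start. Myh11 had no window and was not searched. The only Mylk window lies before a start at 34784950, inside the RefSeq gene, which begins at 34745199, so its upstream end was not searched. The CArG box was searched on both strands, for which it reads alike. An exact CArG box lay before 2 of the 9 genes, Myl9 and Myl6, and before 1.62% of all 27025 genes in the table of promoters. By window, 1.47% of all 32851 windows held one. With 1 mismatch allowed, Myl12a was added, but 18.6% of all windows then held a match. In Myl9, on the plus strand at chr2:156775214-156775463, the exact box starts 161 bases before the transcription start and the box with 1 mismatch 99 bases before it. That start is at 156775464, inside the RefSeq gene, which begins at 156775408. In Myl6, on the minus strand at chr10:128493010-128493259 before the downstream of its 2 listed starts, the exact box lies 50 bases before the start. In Myl12a, on the minus strand at chr17:71002534-71002783, the box with 1 mismatch lies 18 bases before it. Capitals mark the matches. A match describes letters only and is no evidence of binding.
Myl9: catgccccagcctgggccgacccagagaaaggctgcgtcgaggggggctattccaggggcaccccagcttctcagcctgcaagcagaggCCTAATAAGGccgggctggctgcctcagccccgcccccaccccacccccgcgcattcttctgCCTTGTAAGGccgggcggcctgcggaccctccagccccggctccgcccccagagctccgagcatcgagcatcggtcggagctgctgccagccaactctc
Myl6: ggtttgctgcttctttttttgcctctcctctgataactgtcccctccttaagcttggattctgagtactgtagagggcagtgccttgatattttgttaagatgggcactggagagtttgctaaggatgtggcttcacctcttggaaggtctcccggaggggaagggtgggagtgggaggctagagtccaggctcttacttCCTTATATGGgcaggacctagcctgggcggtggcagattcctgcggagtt
Myl12a: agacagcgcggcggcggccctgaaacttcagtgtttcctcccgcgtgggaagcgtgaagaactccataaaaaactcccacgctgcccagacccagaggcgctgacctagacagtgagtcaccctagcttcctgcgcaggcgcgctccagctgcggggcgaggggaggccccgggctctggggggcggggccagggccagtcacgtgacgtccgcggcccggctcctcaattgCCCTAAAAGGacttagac

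Among the 10 genes, 2 rose in the libraries labelled knockdown, the smooth muscle regulatory light chain gene Myl9 and the non-muscle heavy chain gene Myh9. Myl9 rose several-fold from a low level and Myh9 rose modestly at a very high level. The other 7 tested genes did not pass, and Myh11 was too low to test. Of all 11612 tested genes 3.44% passed (1.83% higher and 1.61% lower) at an adjusted p under 0.05 by limma, a linear model fitted to log2(FPKM + 0.1) over all genes. The 9 tested genes had a median log2 fold change of 0.08, beside -0.01 for all tested genes, with 6 values above 0 and 3 below. In 4 of the 9 the FPKM groups did not overlap (3 higher, 1 lower), as in 28.9% of all tested genes (13.3% higher and 15.6% lower). EdgeR on recovered fragments called 3 of 9 genes higher and 0 lower, adding Ppp1r12a, where it called 9.95% of 11563 genes (5.45% higher and 4.5% lower). DESeq2 gave 8 of the genes an adjusted p and called only Myh9, where it called 4.65% of 15554 genes (2.57% higher and 2.08% lower). The 15554 include genes without an adjusted p, and Myl9 and Myh11 had none.

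**Figure D1:**
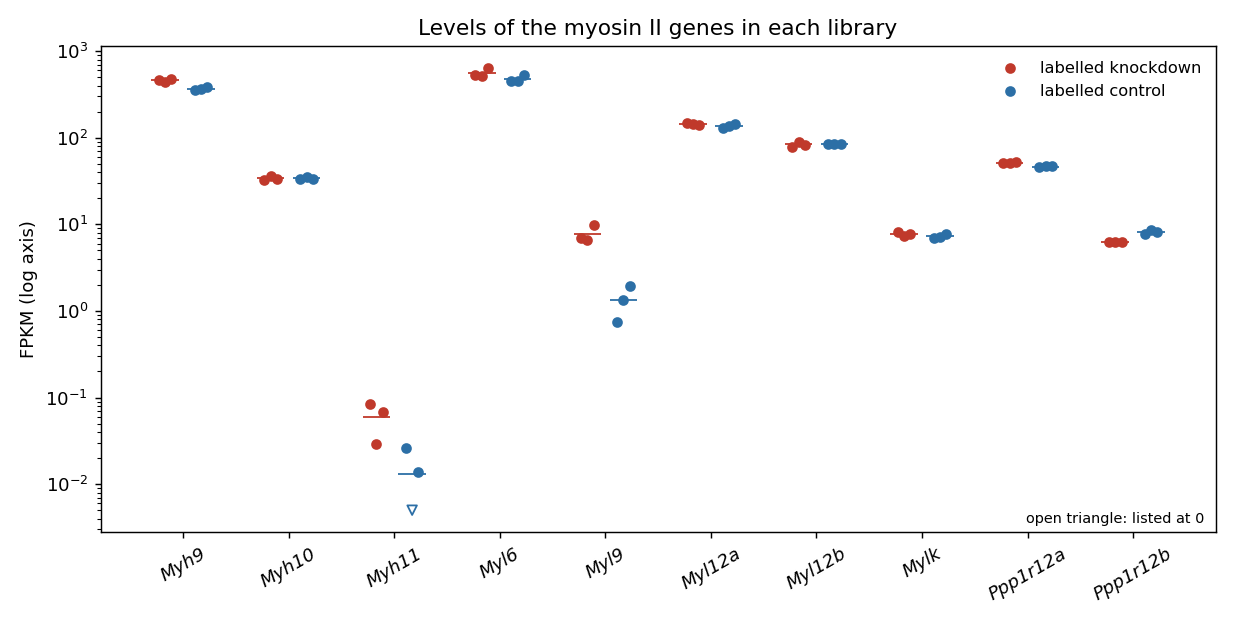
FPKM of the 10 myosin II genes on a log axis, with 1 point per library and a line at each group's mean; libraries labelled knockdown are red and stand left of those labelled control, in blue. Levels span from 639.0 FPKM for Myl6 down to 0 for Myh11, and the Myl9 points of the groups lie well apart.

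The genes differed far more from each other than between groups. Per length, Myl6 and Myh9 were the most abundant, with means of 566.4 and 459.3 FPKM across the libraries labelled knockdown and 478.1 and 370.7 FPKM in those labelled control. Myl12a, Myl12b, Ppp1r12a and Myh10 followed in that order, from 145.7 down to 34.1 FPKM across the libraries labelled knockdown and from 137.4 down to 34.3 in those labelled control. Those 6 levels did not overlap between neighbouring genes within either group. Myl9, Mylk and Ppp1r12b came next in the libraries labelled knockdown, at 7.80, 7.74 and 6.26 FPKM, where the values of Mylk and Myl9 overlapped. In those labelled control the order was Ppp1r12b at 8.16, Mylk at 7.31 and Myl9 at 1.35 FPKM, with the first pair overlapping. Myh11 was last in both groups.

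Heavy chains were almost wholly the non-muscle forms. Myh9 (ENSMUSG00000022443, minus strand, RefSeq gene at chr15:77760585-77842175), the main non-muscle heavy chain, was at 459.2, 442.9 and 475.7 FPKM across the libraries labelled knockdown, against 355.4, 370.3 and 386.3 FPKM in those labelled control. Every library labelled knockdown stood above every library labelled control. Means stood at 459.3 ± 16.4 FPKM under the knockdown label and 370.7 ± 15.5 under the control label (SD, n = 3 each), a 1.24-fold difference with a log2 fold change of 0.31 (SE 0.05, limma adjusted p = 0.0197). The call was lost when any library but control 3 was left out (limma adjusted p = 0.0514 to 0.0837). It was kept without control 3 (0.0357) and lost without the trend (0.0787).

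The size of the Myh9 difference depended on which deposited measure was read. The authors' estimated counts were 22788, 22551 and 23945 in the libraries labelled knockdown and 20101, 19738 and 20839 in those labelled control, a 1.14-fold difference, and edgeR gave a log2 fold change of 0.20 (adjusted p = 0.000973). FPKM per deposited count averaged 1.04 times the gene's own mean in the libraries labelled knockdown and 0.959 times in those labelled control, with no overlap, as in 11.9% of genes. Why FPKM and counts moved apart was not tested.

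Myh10 (ENSMUSG00000020900, plus strand, chr11:68691915-68816626), the second non-muscle heavy chain, had the same shift in FPKM per count, and its FPKM groups overlapped. It was at 32.5, 36.1 and 33.5 FPKM across the libraries labelled knockdown, beside 33.7, 35.6 and 33.7 FPKM in those labelled control. The values interleaved, and the log2 difference was -0.01 (SE 0.06, limma adjusted p = 0.926). Its deposited counts, however, were 1828, 1891 and 1925 in the libraries labelled knockdown, all below the 2074, 2052 and 2114 in those labelled control. EdgeR placed it at a log2 fold change of -0.13, just short of the threshold (adjusted p = 0.0509). Its FPKM per count averaged 1.05 and 0.954 times the gene's mean in the libraries labelled knockdown and labelled control, without overlap.

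Relative to Myh10, Myh9 was higher in the libraries labelled knockdown by either measure. The log2 ratio of Myh9 to Myh10 was 3.82, 3.62 and 3.83 in the libraries labelled knockdown and 3.40, 3.38 and 3.52 in those labelled control, a difference of 0.32 (SE 0.08) on FPKM and 0.34 on deposited counts. The groups did not overlap, and the exact two-sided permutation p was 0.1, the smallest that 3 against 3 libraries allow (adjusted p = 0.175 over the 7 ratios compared). Those ratios include the Myl9 comparison on both a percent and a log2 scale. They also include Ppp1r12a to Ppp1r12b, chosen after the values were seen. Without these repeats and additions the adjusted p would be higher. The summed level of the 3 heavy chains was 493.4 ± 15.2 FPKM across the libraries labelled knockdown and 405.0 ± 15.5 FPKM in those labelled control (SD, n = 3 each).

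Myh11 (ENSMUSG00000018830, minus strand, chr16:14194527-14292188), the smooth muscle heavy chain and a defining marker of contractile cells, was barely detected in either group. It had 6, 2 and 4 fragments in the libraries labelled knockdown and 2, 0 and 1 in those labelled control. A count of 0 still allows an expected count of up to about 3. In FPKM these were 0.0846, 0.0287 and 0.0679 under the knockdown label, against 0.0261, 0 and 0.0136 under the control label. Over the groups there were 12 fragments under the knockdown label and 3 under the control label, a ratio of 4.44 per fragment sequenced. Its exact 95% interval of 1.20 to 24.5 pools the libraries and covers counting error only. DESeq2, which uses the spread between libraries, gave a log2 fold change of 2.18 (SE 1.45, unadjusted p = 0.133). Myh11 made up 0.0122 ± 0.0057% of heavy chain FPKM across the libraries labelled knockdown and 0.0033 ± 0.0034% in those labelled control (SD, n = 3 each), and these shares overlapped.

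Among the light chains the smooth muscle isoform Myl9 moved and its near-identical non-muscle relatives did not pass. Myl9 (ENSMUSG00000067818, plus strand, chr2:156775408-156781657), the regulatory light chain of smooth muscle and the gene with the CArG boxes printed first above, was at 7.05, 6.55 and 9.81 FPKM across the libraries labelled knockdown, against 0.744, 1.35 and 1.95 FPKM in those labelled control. The lowest library labelled knockdown stood above the highest labelled control. Means stood at 7.80 ± 1.76 FPKM under the knockdown label and 1.35 ± 0.605 under the control label (SD, n = 3 each), a 5.79-fold difference with a log2 fold change of 2.52 (SE 0.33, limma adjusted p = 0.0141). The exact permutation p of the single gene was 0.1. Leaving out knockdown 1, knockdown 2 or control 2 ended the call (adjusted p = 0.0605, 0.0585 and 0.0622), over a range of 0.0199 to 0.0622 for the 6 libraries left out in turn.

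In fragments the Myl9 difference was larger. The libraries labelled knockdown held 70, 64 and 83 fragments and those labelled control 8, 3 and 16, so the control values rest on few fragments. Mean deposited counts were 77.8 ± 18.9 under the knockdown label and 8.54 ± 6.34 under the control label (SD, n = 3 each), a 9.10-fold difference, and edgeR gave a log2 fold change of 3.17 (adjusted p = 0.000448). In control 2, with 3 fragments, FPKM per count was 2.80 times the gene's mean, against 0.596 to 0.766 in the other 5 libraries. DESeq2 gave a log2 fold change of 3.19 and an unadjusted p of 2.85e-13, but no adjusted p for this gene.

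**Figure D2:**
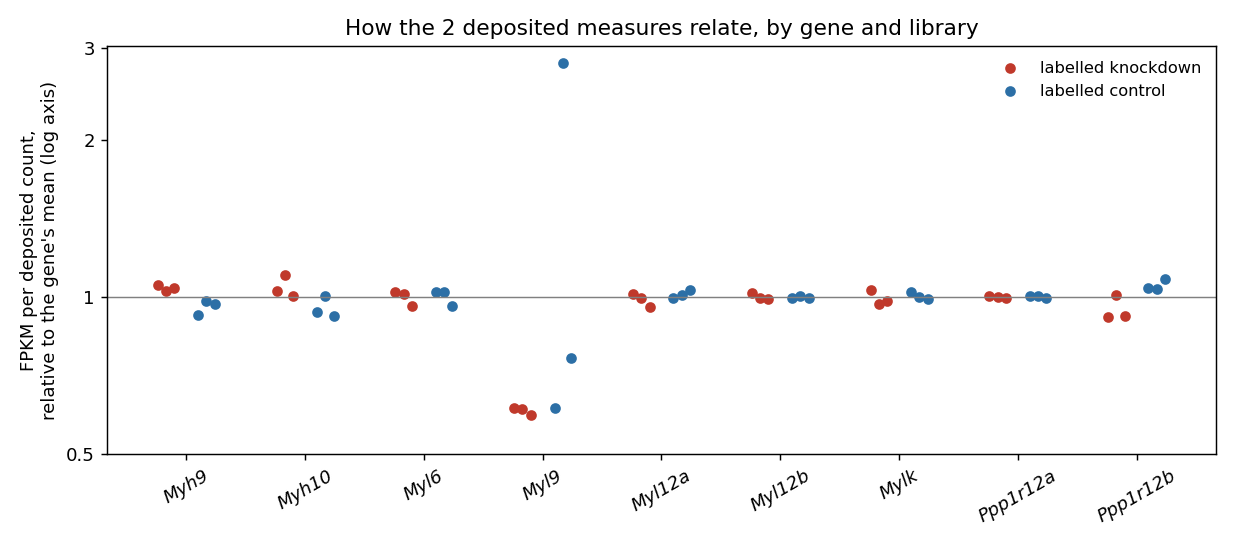
FPKM per deposited count in each library, divided by the gene's mean over the 6 libraries (log axis), for the 9 tested genes; libraries labelled knockdown are red and left of those labelled control, in blue. Myl9 in control 2 stands alone at 2.80, while Myh9 and Myh10 lie higher, and Ppp1r12b lower, in the libraries labelled knockdown without overlap.

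Myl12a and Myl12b, the regulatory light chains of non-muscle myosin, lie next to each other on the minus strand of chromosome 17, at chr17:70993793-71002533 and chr17:70973963-70990516. Their products are close to Myl9 and to each other in sequence, and how the authors' counting split shared fragments is uncertain. Myl12a (ENSMUSG00000024048) was at 148.9, 146.0 and 142.1 FPKM across the libraries labelled knockdown, beside 131.0, 136.8 and 144.6 in those labelled control. The highest control library stood among those labelled knockdown, and the log2 difference was 0.08 (SE 0.05, limma adjusted p = 0.338; edgeR 0.13, adjusted p = 0.0718). Its deposited counts did not overlap, at 1401, 1398 and 1417 in the libraries labelled knockdown and 1256, 1292 and 1336 in those labelled control. Myl12b (ENSMUSG00000034868) was at 78.2, 89.7 and 83.5 FPKM across the libraries labelled knockdown, beside 83.7, 84.7 and 85.7 in those labelled control. The control values lay inside the knockdown range, with a log2 fold change of -0.02 (SE 0.06, adjusted p = 0.878).

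Although Myl9 rose, it remained a small part of the regulatory light chain RNA. It made up 3.01, 2.70 and 4.17% of the summed FPKM of Myl9, Myl12a and Myl12b in the libraries labelled knockdown, against 0.346, 0.604 and 0.842% in those labelled control. The groups did not overlap (exact permutation p = 0.1; adjusted p = 0.175). The log2 ratio of Myl9 to its non-muscle relatives, the same comparison on another scale, differed by 2.57 (SE 0.42) on FPKM and by 3.41 on deposited counts. The summed level of the 3 regulatory chains was 237.3 ± 4.39 FPKM across the libraries labelled knockdown and 223.5 ± 8.43 in those labelled control (SD, n = 3 each), 1.06-fold higher.

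Myl6 (ENSMUSG00000090841, minus strand, chr10:128490859-128493886), the essential light chain shared by smooth muscle and non-muscle myosin, was the most abundant of the 10. It was at 537.5, 522.7 and 639.0 FPKM across the libraries labelled knockdown, beside 454.6, 448.0 and 531.8 in those labelled control. Replicate 3 was the highest library of each group, and control 3 reached into the knockdown range. The log2 difference was 0.24 (SE 0.09, limma adjusted p = 0.190; edgeR 0.26, adjusted p = 0.121). The proportion of heavy to light chains overlapped between the groups, with a log2 ratio of -0.70 ± 0.07 in the libraries labelled knockdown and -0.79 ± 0.07 in those labelled control (SD, n = 3 each; difference 0.09, SE 0.06, exact permutation p = 0.2), which does not show that it was the same.

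**Figure D3:**
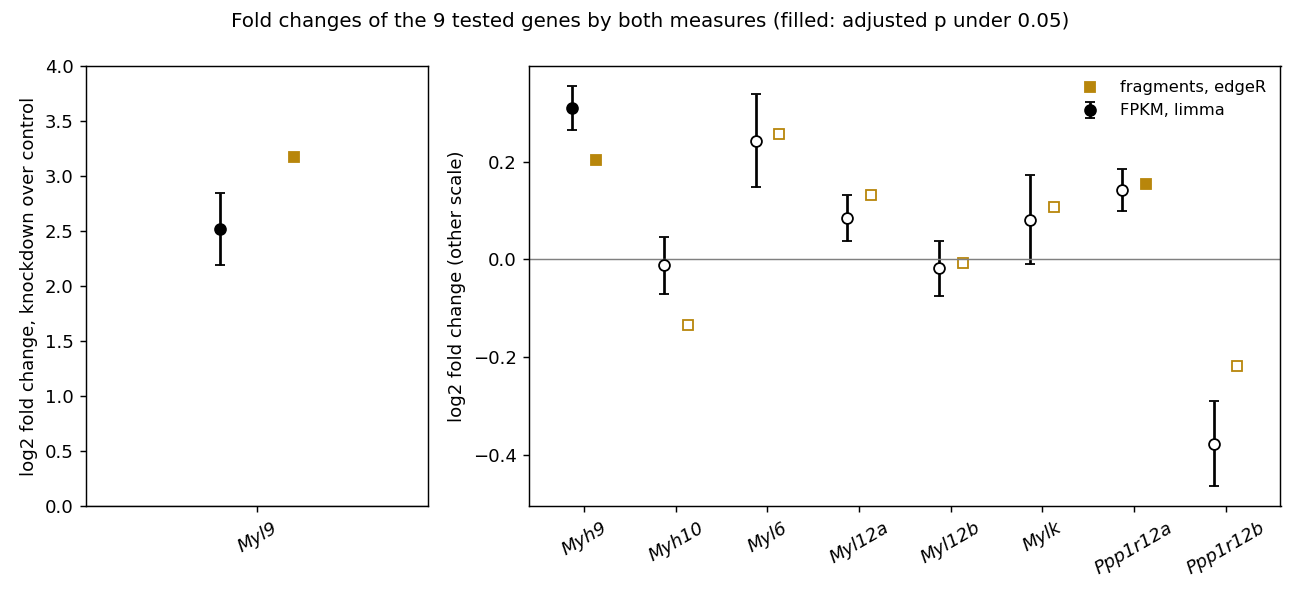
Log2 fold changes of the 9 tested genes, libraries labelled knockdown over those labelled control, from FPKM by limma (circles, bars are SE) and from fragments by edgeR (squares); Myl9 has a scale of its own and filled symbols passed an adjusted p of 0.05. Only Myl9 and Myh9 are filled in both, and the measures lie apart for Myl9, Myh9, Myh10 and Ppp1r12b.

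The kinase gene did not pass. Mylk (ENSMUSG00000022836, plus strand, chr16:34745199-35002436), which encodes smooth muscle myosin light chain kinase, was at 8.20, 7.26 and 7.76 FPKM across the libraries labelled knockdown, beside 7.02, 7.14 and 7.76 in those labelled control. The groups overlapped, with a log2 fold change of 0.08 (SE 0.09, limma adjusted p = 0.636; edgeR 0.11, adjusted p = 0.303). It rested on 504 to 612 fragments per library in the group labelled knockdown and 563 to 622 in the group labelled control.

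The phosphatase targeting subunits leaned in opposite directions, though neither passed in limma. Ppp1r12a (ENSMUSG00000019907, plus strand, chr10:108162092-108279985), the widely expressed subunit, was at 51.0, 50.9 and 52.3 FPKM across the libraries labelled knockdown, against 45.6, 47.1 and 47.0 in those labelled control. The groups did not overlap, and the log2 fold change of 0.14 (SE 0.04) did not pass (limma adjusted p = 0.114). EdgeR on fragments did call the gene (log2 fold change 0.15, adjusted p = 0.0328) and DESeq2 did not (adjusted p = 0.0552). Ppp1r12b (ENSMUSG00000073557, minus strand, chr1:134754658-134955963), the form best known from heart and other muscle, was at 6.22, 6.32 and 6.23 FPKM across the libraries labelled knockdown, against 7.65, 8.65 and 8.19 in those labelled control. All 3 libraries labelled knockdown stood below all 3 labelled control, with a log2 fold change of -0.38 (SE 0.09, limma adjusted p = 0.0644). In fragments the difference was smaller (edgeR log2 fold change -0.22, adjusted p = 0.0880), and FPKM per count averaged 0.947 and 1.05 times the gene's mean in the libraries labelled knockdown and labelled control, without overlap.

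The ratio between the subunits separated the groups, and the ratio of kinase to phosphatase did not. The first had to, because Ppp1r12a was higher and Ppp1r12b lower in every library labelled knockdown. Its permutation p therefore adds nothing to the single genes. The log2 ratio of Ppp1r12a to Ppp1r12b, a comparison chosen after the values were seen, was 3.03, 3.01 and 3.07 in the libraries labelled knockdown and 2.58, 2.44 and 2.52 in those labelled control. It differed by 0.52 (SE 0.04) on FPKM and by 0.37 on deposited counts (exact permutation p = 0.1; adjusted p = 0.175). The log2 ratio of Mylk to the summed targeting subunits was -2.80, -2.98 and -2.91 in the libraries labelled knockdown and -2.92, -2.97 and -2.83 in those labelled control, a difference of 0.01 (SE 0.07; exact permutation p = 0.9).

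**Figure D4:**
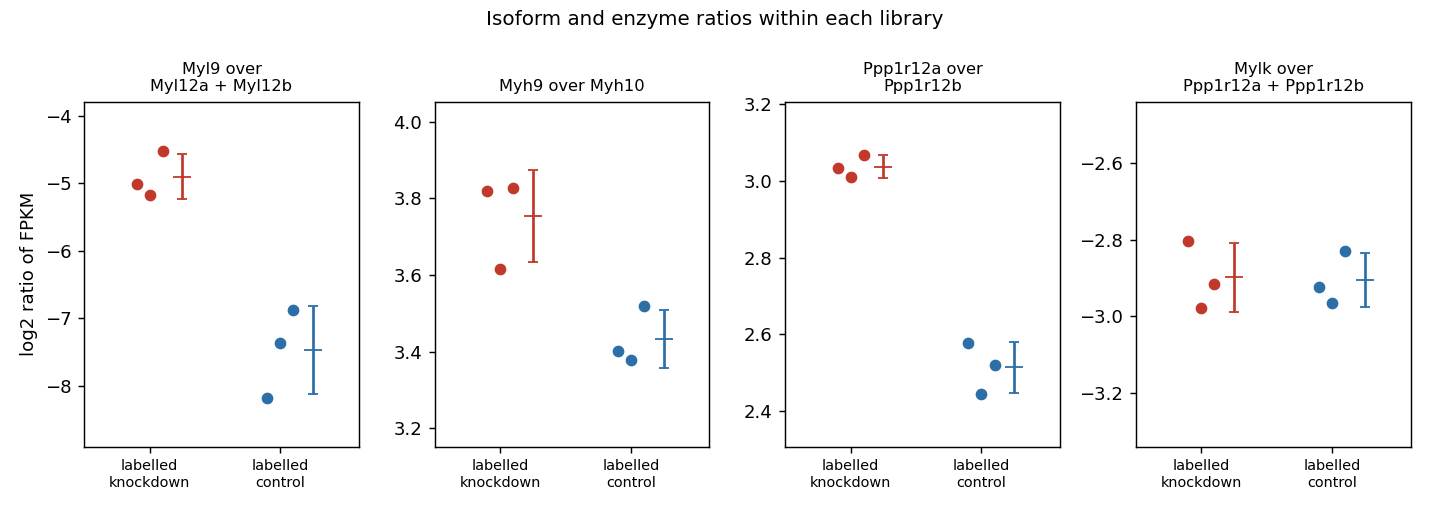
Log2 ratios of FPKM within each library, each panel on its own scale, with libraries labelled knockdown left of those labelled control; points are libraries and bars the mean and SD. The groups stand apart for Myl9 over its non-muscle relatives, Myh9 over Myh10 and Ppp1r12a over Ppp1r12b, and overlap for Mylk over the phosphatase subunits.

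In the wider pathway, 27 of 29 tested genes did not pass in limma, 1 was higher and 1, Rhob, was lower. Of all 11612 tested genes 3.44% passed (1.83% higher and 1.61% lower). The list of 39 genes holds other myosin II chains and kinases, the catalytic and inhibitory subunits of the phosphatase, and small GTPases with their regulators and effectors. Of these, 38 were in the table and 9 of those were under the filter. Rhob, a short-lived small GTPase induced by growth signals and stress, was at 83.3, 76.7 and 78.6 FPKM across the libraries labelled knockdown, against 101.9, 99.6 and 100.7 in those labelled control (log2 fold change -0.34, SE 0.04, limma adjusted p = 0.0141). Its groups did not overlap. Leaving out knockdown 2 ended the Rhob call in limma (adjusted p = 0.0669), as did leaving out control 1 (0.0673) or control 2 (0.0656). The median log2 fold change of the 29 was -0.04, beside -0.01 for all tested genes.

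**Figure D5:**
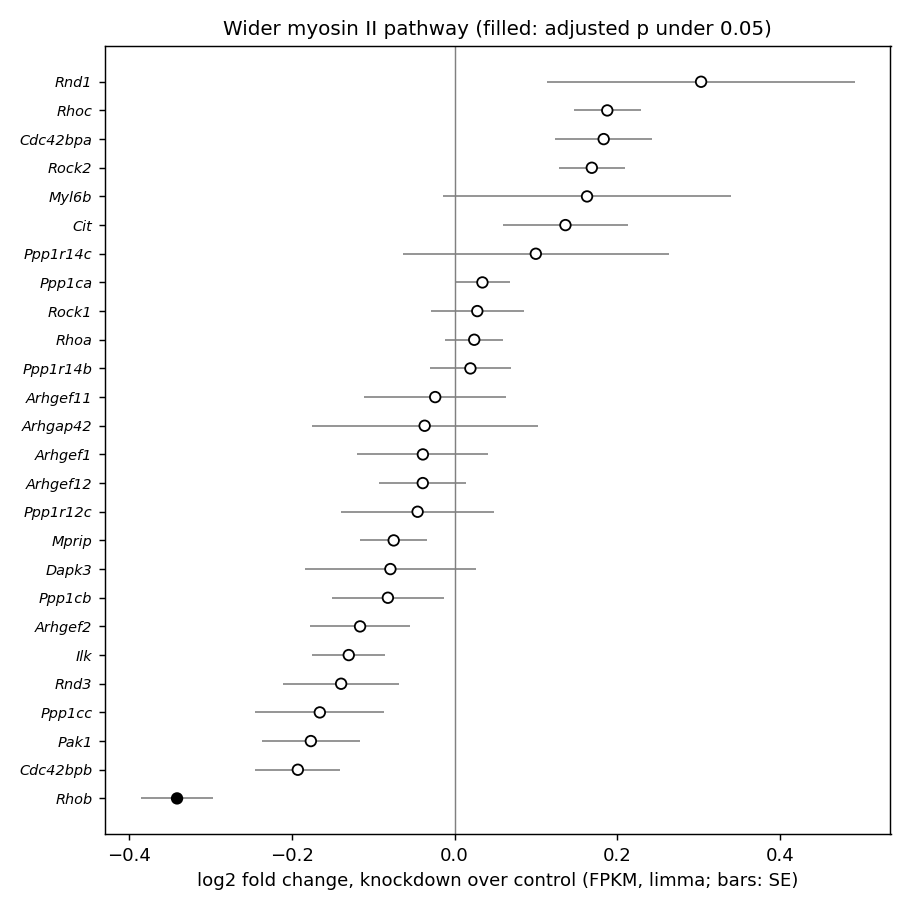
Log2 fold changes of tested genes of the wider myosin II pathway that are reported here, libraries labelled knockdown over those labelled control, from FPKM by limma (bars are SE; filled points passed an adjusted p of 0.05). Rhob at -0.34 passed, and Rnd1 at 0.30 did not.

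The core genes upstream of the phosphatase did not pass in limma. Rhoa, which encodes the small GTPase that activates the kinases of Rock1 and Rock2, was at 142.9 ± 2.60 FPKM across the libraries labelled knockdown and 140.5 ± 1.18 in those labelled control (SD, n = 3 each; adjusted p = 0.722). The kinase gene Rock1 averaged 18.8 ± 0.470 FPKM under the knockdown label and 18.4 ± 0.443 under the control label (adjusted p = 0.806). Its paralog Rock2 was at 56.7 ± 0.0894 FPKM across the libraries labelled knockdown and 50.4 ± 0.936 in those labelled control, without overlap (log2 fold change 0.17, limma adjusted p = 0.0711; edgeR adjusted p = 0.00405). Ppp1cb, the catalytic subunit of myosin phosphatase, averaged 63.3 ± 4.13 FPKM under the knockdown label and 67.1 ± 4.72 under the control label (adjusted p = 0.523). Ppp1r12c, the other targeting subunit, averaged 18.5 ± 2.30 FPKM under the knockdown label and 19.1 ± 0.498 under the control label (adjusted p = 0.809). Myl6b, an essential light chain gene beside Myl6, averaged 13.7 ± 2.61 FPKM under the knockdown label and 12.2 ± 2.09 under the control label (adjusted p = 0.625).

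Several genes of the wider pathway and most striated muscle myosin genes were near or at 0. Ppp1r14a, the phosphatase inhibitor of smooth muscle, had 0 fragments in each library labelled knockdown and 0, 0 and 4 in those labelled control. Myh14, the remaining non-muscle heavy chain, was listed at 0 in all 6 libraries. Of 17 striated muscle myosin genes 16 were under the filter. The exception, Mylpf, was at 1.59 ± 0.604 FPKM across the libraries labelled knockdown and 2.56 ± 0.336 in those labelled control and did not pass (adjusted p = 0.200). EdgeR on fragments called 5 of 30 wider pathway genes higher and 3 lower, against 9.95% of all genes. Among them, named after their values were seen, Cdc42bpa, Rhoc and Rock2 were higher and Cdc42bpb, Cit and Rhob lower. Cit, which encodes citron kinase of the dividing cell, changed sign with the measure, at 0.14 in limma on FPKM (adjusted p = 0.339) and -0.33 in edgeR (adjusted p = 0.00459).

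Likeness of profile was measured as the Euclidean distance between log2(FPKM + 0.1) values over the 6 libraries, each gene centred on its own mean. The 5 tested genes nearest to Myl9 were Vwf (distance 0.469), Acta2 (0.920), Ccl5 (1.02), Gm10419 (1.13) and Lmod1 (1.15). In the group labelled knockdown Acta2 averaged 340.2 FPKM and Vwf 1.24 FPKM, against 67.2 and 0.185 FPKM in the group labelled control. Acta2 and Lmod1 encode smooth muscle actin and leiomodin of the contractile filaments, Vwf the von Willebrand factor and Ccl5 a chemokine. The 5 nearest to Myh9 were Anxa8 (0.0628), Emd (0.0664), Cdkn1a (0.0796), Slc39a13 (0.0823) and Frmd8 (0.0852), of which Frmd8 did not pass in limma (adjusted p = 0.0859), and neither did Gm10419 (0.0545). The deposited table's own annotation places 6 of the 10 genes in vascular smooth muscle contraction. Of 62 tested genes with that annotation 5 were called higher, among them Mrvi1, Acta2, Actg2 and Myl9, and 0 lower. Over all 11612 tested genes 1.83% were called higher and 1.61% lower. The annotation also places 8 of the 10 genes in regulation of actin cytoskeleton, where 6 of 145 tested genes were higher and 0 lower. It places 6 in focal adhesion (11 of 150 higher, 0 lower) and 6 in tight junction (3 of 80 higher, 1 lower). Myl9 is among the higher genes of each of these annotations, and Myh9 among those of actin cytoskeleton and tight junction. The counts are therefore not separate from the calls of the 10 genes.

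The noncoding table pairs 11 transcripts with 4 of the 10 genes, and 8 of them were listed at 0 in every library. The 1 that could be tested, BC028549, natural antisense to Myh10, was at 0.867, 2.05 and 1.34 FPKM across the libraries labelled knockdown, beside 0.668, 0.987 and 1.08 in those labelled control. The groups overlapped (log2 fold change 0.54, SE 0.37, limma adjusted p = 0.559), on 6, 14 and 8 fragments under the knockdown label and 5, 7 and 8 under the control label. Of 4955 tested noncoding transcripts 4.26% were called (110 higher and 101 lower), a count that 1 library could move. Without knockdown 2 it was 6 higher and 4 lower, without control 1 31 higher and 79 lower, and without control 2 39 higher and 80 lower. NR_015606, which shares exons with Ppp1r12b, held nearly all its signal in knockdown 2 (0.315 FPKM) and control 3 (0.521 FPKM), and how fragments were divided between it and the coding gene was not tested. Counting strand is not given in the sources used here, so an antisense transcript and its partner may share fragments.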

How the data were processed

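RNA of mouse aortic smooth muscle cells was measured in 3 libraries labelled Myocd knockdown and 3 labelled control, ribosome-depleted and stranded per the labels' protocols. Per the submitters' processing notes, cutadapt, HISAT2 2.0.4, Cufflinks and Cuffdiff 2.2.1 were used, and the builds mm10 and mm9 are named without roles; 6247 gene starts equal RefSeq GRCm38 starts after adding 1, against 472 without, so coordinates are given as GRCm38. The authors deposited FPKM values, normalized by transcript length and library size, and estimated counts. The deposited estimated counts are fragments multiplied by 1 constant per library (0.916 to 1.20); divided by it, 90.1% to 90.4% of values above 0 lay within 0.01 of a whole number. They were rounded for the count tools.

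Rows of 79 repeated symbols were summed. The main test was limma 3.58.1 (R 4.3.3) with an intensity trend on log2(FPKM + 0.1), group as the only term, over genes with at least 0.5 FPKM (noncoding transcripts 0.1) in at least 3 libraries, with Benjamini-Hochberg adjustment over the table and a threshold of 0.05. This scale understates changes of low genes. Fold changes are knockdown over control. EdgeR 4.0.16 and DESeq2 1.42.0 on fragments were alternatives, since the deposited counts are scaled estimates. All were run on simulated data with seeded changes larger than that of any tested member but Myl9. Recovery of smaller changes, such as that of Myh9, was not checked. Ratios within a library were compared by exact permutation (scipy 1.17.1). The members and lists were chosen with earlier results of these data known. Named genes are the 10 members, called genes of the wider list and further genes of it listed by name, Myocd, and the 5 profiles nearest to Myl9 and to Myh9. Some items of the wider list were counted and are not reported here by name.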

Additional observations from a re-analysis of the deposited data

How the results depend on the processing

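The member calls were 2 (Myl9 and Myh9) with other pseudocounts, filters, scalings, robust estimation and library weights. They numbered 1 without the trend (Myl9), 1 with both replicate 3 libraries left out (Myl9) and 1 with DESeq2 (Myh9). DESeq2 gave Myl9 no adjusted p, so it could not be called there. The calls numbered 3 with edgeR and TMM scaling. They numbered 4 with edgeR and relative log expression factors or with no filter on counts (Myh10 and Ppp1r12a added). With 1 library left out they numbered 0 to 2. Myl9 kept its sign in 20 of 20 alternatives and passed in 17, and Myh9 in 21 of 21 and 14. Calls over all genes were 400, and 144 without the trend, 624 with library weights, 243 with the replicate block, 76 with both replicate 3 libraries left out, 1150, 1153 and 1168 with the 3 edgeR fits, 723 with DESeq2, and 44 to 178 with 1 library left out. The wider list had 2 calls, and 0 without the trend, 4 with library weights, 0 without both replicate 3 libraries, 8, 8 and 7 with edgeR, 7 with DESeq2, and 0 to 2 with 1 library left out. The causes were not tested. On fragments the log2 ratio of Myl9 to its relatives differed by 3.41, of heavy to light chains by -0.0156 and of Ppp1r12a to Ppp1r12b by 0.37. On FPKM with 1 library left out, the same differences ranged from 2.22 to 2.87, from 0.05 to 0.13 and from 0.49 to 0.55. The replicate numbers do not pair the libraries by their deviations (r of 0.037, -0.004 and 0.1 for same-numbered pairs); a replicate block added Myl6 (adjusted p = 0.0306), for 3 member calls. Values near 0 changed sign for Myh10 without knockdown 1 or control 2 (-0.0551 to 0.0204 with 1 library left out), Myl12b without knockdown 1 (-0.0683 to 0.0311), Rhoa under quantile normalization (-0.0085), Myl6b without both replicate 3 libraries (-0.0598) and Ppp1r12c without knockdown 2 (-0.135 to 0.0434), with the edgeR fits (0.0042, 0.0029 and 0.00092) and with DESeq2 (0.0031); none of these passed. No noncoding transcript paired with a member was called by limma in the settings run, with 0 at an unadjusted p under 0.05 in the fit the results rest on; that count was not made for the other settings. Calls over all noncoding transcripts, 110 higher and 101 lower, were 44 and 44 with no filter and 1 and 0 with the replicate block. Depth limits Myl9 in the control group (3 to 16 fragments) and Myh11 throughout.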
